A study of Homo sapiens with 6 samples.

Results

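The 39 genes described here act in the passage of a cell from G1 into S phase and the copying of its DNA. They were chosen by symbol, as the rows of the deposited gene table whose name is one of a list of D and E cyclins with their kinases, pocket proteins, E2F factors, origin-licensing factors, helicase activators, replication proteins and enzymes of nucleotide supply. All 39 were found among the 58825 genes of the table, each in 1 row, and 38 of them passed the filter on low counts. The exception was CCND2, one of the D cyclins. The study sequenced polyadenylated RNA of MHCC97H, an established human hepatocellular carcinoma line, to find what depends on PTBP1, an RNA-binding regulator of splicing. It holds 6 libraries, 3 of cells with a control hairpin (shControl, genotype WT) and 3 of cells with a short hairpin RNA against PTBP1 (shPTBP1, genotype PTBP1 knockdown). The labels name neither the hairpin sequence used nor whether the libraries of a group came from separate cultures, so the p-values below measure the spread between these libraries, which may be technical. Untreated parental cells were not analysed here.

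In a cell that is about to divide, cyclin D with CDK4 or CDK6 and then cyclin E with CDK2 phosphorylate the pocket proteins RB1, RBL1 and RBL2. The pocket proteins then release the E2F factors, which switch on the genes of DNA replication. In G1 the origin recognition complex, CDC6 and CDT1 load the ring of MCM2 to MCM7 onto DNA, a step called licensing that geminin (GMNN) blocks later in the cycle. CDC45, the GINS proteins and MCM10 turn the loaded ring into a moving helicase, and PCNA, DNA polymerase alpha, ribonucleotide reductase, thymidylate synthase and thymidine kinase supply the machinery and the nucleotides of the copy. Many of these mRNAs are themselves made mostly around the G1/S boundary.

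The libraries hold 68704509 to 85317970 deposited counts. The mRNA of PTBP1, the targeted gene, was listed at 21.2, 16.4 and 27.4 FPKM (fragments per kilobase of transcript per 1e6 fragments) in shControl 1, 2 and 3 and at 17.3, 16.9 and 18.0 FPKM in shPTBP1 1, 2 and 3, so the groups overlapped, and "the libraries labelled shPTBP1" is meant wherever shPTBP1 is written. Of 12 hepatocyte and hepatocellular carcinoma markers, 10 stayed under 1 FPKM in every library (highest value 0.22 FPKM) and ALB and AFP were listed at 0 throughout, whereas KRT8 and KRT18, keratins of simple epithelia, were present. Transcripts of blood cells separated the libraries by number. The summed level of 5 red-cell genes was 989, 628 and 1.09 FPKM in shControl 1, 2 and 3 and 656, 594 and 0.88 FPKM in shPTBP1 1, 2 and 3, and HBB, the beta-globin gene, made up 519, 329, 0.36, 345, 306 and 0.36 FPKM of these. The summed level of 6 leukocyte genes followed the same split, at 13.7 to 24.1 FPKM in the libraries numbered 1 and 2 and at 0.10 and 0.07 FPKM in those numbered 3. Because of this split, values are also given for the libraries numbered 1 and 2 alone. Of the other lists, 2 of 4 fibroblast markers reached 1 FPKM and none of 3 endothelial markers did. Unlike the blood-cell transcripts, 2 of the markers, COL3A1 and KRT8, were apart by label, where the groups did not overlap in 11.9% of all genes tested. COL3A1, a collagen, was listed at 20.1, 25.6 and 25.5 FPKM with the control hairpin and at 43.2, 41.3 and 32.4 FPKM under shPTBP1 (log2 fold change 0.74, unadjusted p = 0.00134, adjusted p = 0.336 in edgeR), while COL1A1 overlapped and COL1A2 and DCN stayed at 0.06 FPKM or less. KRT8 was higher in every shPTBP1 library (log2 fold change 0.32, unadjusted p = 0.0171, adjusted p = 0.726 in edgeR). The part of either in the members' values was not tested.

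The members differed far more from each other than between the groups. Over the 38 members other than CCND2, the mean level over the 6 libraries ran from 0.74 FPKM for E2F8 to 480.3 FPKM for RRM1, with a median of 18.2 FPKM. RRM1, the large subunit of ribonucleotide reductase, was listed at 466 ± 31.2 FPKM in shControl and 494 ± 2.97 FPKM in shPTBP1 (SD, n = 3 each) and ranked 43rd among all genes. PCNA, the sliding clamp that holds the polymerase on DNA, followed at 232 ± 8.53 and 207 ± 15.7 FPKM.

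Within the MCM ring, whose 6 subunits assemble in equal number, the mRNA levels were unequal. MCM3 stood at 134.8 FPKM on average over the 6 libraries, MCM7 at 95.2, MCM6 at 69.98, MCM2 at 56.9, MCM4 at 55.2 and MCM5 at 27.8. Of the 2 subunits of ribonucleotide reductase, RRM1 exceeded RRM2 by 43.7 to 51.4 times in FPKM, depending on the library, and by 20.2 to 23.8 times in counts per 1e6 counts. The gap between these ratios lies in the length by which the authors' FPKM divide a count. One FPKM of a member stood for 1.01 (CDT1) to 2.97 (RRM2) CPM per kilobase of its longest GENCODE transcript, with a median of 1.44, and CCND3, ORC6 and GMNN were next to RRM2 at 2.88, 2.80 and 2.34. Levels of members relative to each other carry an uncertainty of this kind, largest for these 4, which is the same in every library and does not enter a comparison between groups. In the MCM ring 1 FPKM stood for 1.98 CPM per kilobase in MCM4, 1.55 in MCM2 and 1.32 in MCM6. The order of these subunits by level therefore depends on the length used.

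**Figure D1:**
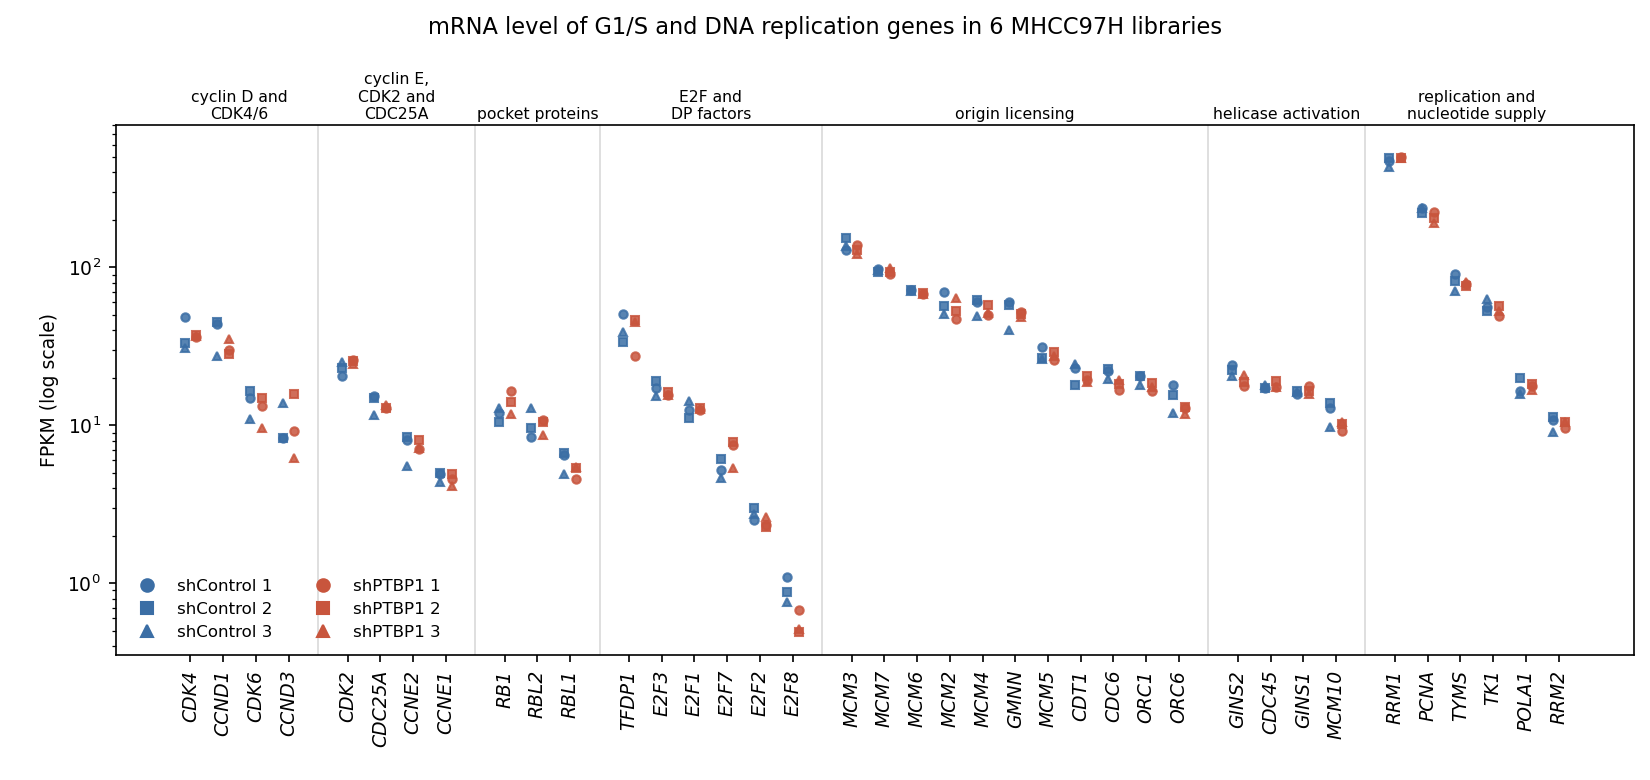
The deposited FPKM of 38 members in each library on a log scale, ordered by role and then by mean level, with shControl in blue, shPTBP1 in red and the library number as the marker shape. CCND2, at 0.03 FPKM or less in every library, is not drawn. The members span 0.74 (E2F8) to 480.3 FPKM (RRM1), and in most of them the blue and red points of a gene overlap.

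No member passed the test between the groups. In edgeR's quasi-likelihood test over 19393 genes, 0 of 38 members passed an adjusted p of 0.05, against 0.0309% of all genes (6 genes), and the smallest adjusted p of a member was 0.826, for E2F8. At an unadjusted p under 0.05 there was 1 member, E2F8, or 2.63% of the members against 5.69% of all genes. DESeq2 likewise called 0 members at an adjusted p under 0.05 and 1, again E2F8, at an unadjusted p under 0.05, with 0.726% and 5.91% of all genes past these thresholds. The CPM (TMM-normalized counts per 1e6 counts) of the groups did not overlap in 3 of 38 members, 7.89% against 11.9% of all genes. They were E2F8, lower in every shPTBP1 library (5.46% of all genes), and CDK2 and CDC45, higher in every one (6.49% of all genes). This depended on the unit. In the deposited FPKM E2F8 stayed apart, CDK2 and CDC45 overlapped, and MCM6 and CDC6, which overlapped in CPM, were lower in every shPTBP1 library. The shares of all genes given here are those in CPM, and the share in FPKM was not computed, so the FPKM result cannot be set against all genes. In RNA of whole cultures, fewer cells in a phase of the cycle and less of an mRNA per cell cannot be told apart.

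The differences of the members between these 6 libraries were mostly small. Their intervals measure the spread between these libraries only and set no bound on an effect of PTBP1. The median absolute log2 fold change of the members was 0.08, compared with 0.19 over all genes and 0.14 over the 11821 genes whose mean CPM lay in the range of the members. The 95% interval of the log2 fold change lay within 2-fold in either direction for 37 of 38 members (97.4%), against 57.1% of all genes and 85.3% of the genes in that CPM range, and within 1.5-fold for 29 members. That range runs from 3.62 CPM (E2F8) to 2420 CPM (RRM1), and its genes were not matched to the members by level. The median standard error was 0.13 for the members and 0.17 for those genes. The interval of E2F8 alone reached past 2-fold. The log2 ratio of shPTBP1 3 to shControl 3, which has no replicate, lay outside the interval for 9 of 38 members (23.7%), among them CCND3 at -1.09. The interval is for a difference between groups of 3 libraries, and a ratio of 1 library to 1 spreads more widely. This count therefore does not measure a disagreement, and the share over all genes was not computed. The standard errors (SE) of the log2 fold changes ran from 0.08 for MCM6 to 0.35 for CCND3. By sign, 25 of 38 members were lower in shPTBP1 (65.8%, against 52.0% of all genes), and their median log2 fold change was -0.04, against -0.01 over all genes.

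**Figure D2:**
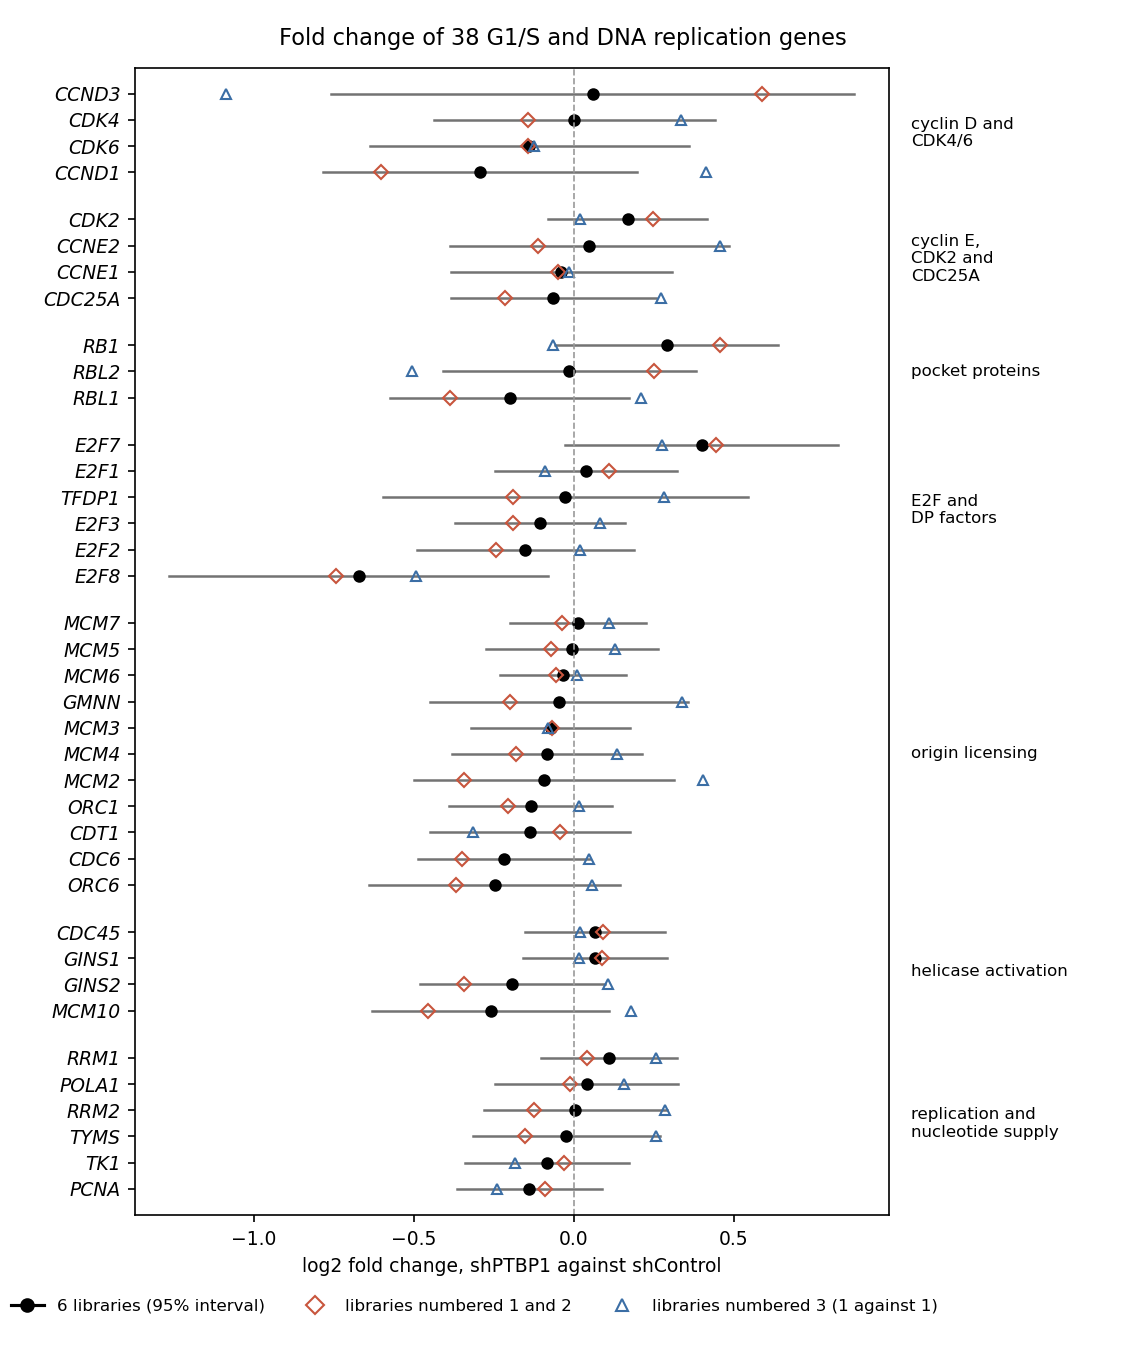
The log2 fold change of 38 members, shPTBP1 against shControl, grouped by role. Black points with bars are the edgeR estimates from all 6 libraries with their 95% interval, open diamonds the estimates from the libraries numbered 1 and 2, and open triangles the ratio of shPTBP1 3 to shControl 3, with no replicate. The bar of E2F8 is the only one that does not cross 0, and for 26 members the diamond and the triangle lie on opposite sides of 0. The share of all genes with such a change of sign was not computed.

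The first step of the pathway is the pairing of a D cyclin with CDK4 or CDK6. CCND1, the D cyclin with the highest FPKM in these cells, lies on chromosome 11 from 69641087 to 69654474 and stood at 252, 257 and 155 CPM in shControl 1, 2 and 3 and, under shPTBP1, at 173, 162 and 206 CPM. The first pair of shControl libraries stood above all others, while shControl 3 was the lowest of the 6, so the groups overlapped. The log2 fold change of CCND1 was -0.29 (SE 0.21, 95% interval -0.78 to 0.20, adjusted p = 0.954 in edgeR). In the libraries numbered 1 and 2 alone the log2 fold change of CCND1 was -0.60 (adjusted p = 0.0815 in edgeR), the smallest adjusted p of a member in that fit, whereas shPTBP1 3 exceeded shControl 3 by 0.41 on the log2 scale.

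CDK4, the kinase with the highest level of this group at 37.2 FPKM, was measured at 179.8, 122 and 110.1 CPM in the control libraries and at 135, 138 and 139 CPM in the libraries labelled shPTBP1. The 3 shPTBP1 libraries lay close together inside the range of shControl, and the log2 fold change of 0.00 (SE 0.19) took either sign depending on the scaling. CDK6 had a log2 fold change of -0.14. CCND3 varied most among the members within a group, from 57.3 to 93.2 CPM in shControl and from 43.8 to 108 CPM in shPTBP1, and no direction could be read from it. CCND2 was listed at 0.03, 0.00 and 0.01 FPKM in shControl and at 0.00, 0.01 and 0.00 FPKM in shPTBP1, so it was absent or nearly so in every library and was not tested.

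Cyclin E and CDK2 form the second kinase of the pathway, and CDC25A is the phosphatase that activates CDK2. CDK2, on chromosome 12 from 55966781 to 55972789, reached 94.9, 106 and 114 CPM with the control hairpin, compared with 121, 118 and 116 CPM in the shPTBP1 libraries. Every shPTBP1 library lay above every shControl library in CPM, by a margin of under 2 CPM between shControl 3 and shPTBP1 3. In FPKM the groups overlapped, with shControl 3 at 25.31 and shPTBP1 3 at 24.45. CDK2 had a log2 fold change of 0.17 (SE 0.11, unadjusted p = 0.153, adjusted p = 0.953 in edgeR). CCNE1, CCNE2 and CDC25A had log2 fold changes of -0.04, 0.05 and -0.06. CCNE2, at 7.40 FPKM, shares its locus with 2 genes on the opposite strand, INTS8 at 7.41 FPKM and NDUFAF6 at 3.56 FPKM (48.1% of CCNE2). Since the sources do not say whether reads were counted by strand, the reads of CCNE2 cannot be assigned with certainty. In shControl 3 CCNE2 stood at 28.1 CPM, below the 37.2 to 43.5 CPM of the other 5 libraries.

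The pocket proteins hold E2F factors in check. RB1, the retinoblastoma protein, stood at 91.8, 79.6 and 96.2 CPM in shControl 1, 2 and 3 and, under shPTBP1, at 128, 107 and 92.0 CPM. The libraries shPTBP1 1 and 2 were the highest of the 6, and shPTBP1 3 lay inside the range of shControl. For RB1 this gave a log2 fold change of 0.29 (SE 0.15, unadjusted p = 0.0899, adjusted p = 0.933 in edgeR) with all libraries and 0.46 (unadjusted p = 0.0191, adjusted p = 0.198) with those numbered 1 and 2.

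RBL1, also called p107, was measured at 46.1, 46.5 and 34.2 CPM in the control libraries and at 32.6, 38.2 and 39.5 CPM in the libraries labelled shPTBP1. As for CCND1, shControl 1 and 2 were the highest, and here shControl 3 lay among the shPTBP1 libraries. On the log2 scale RBL1 differed by -0.20 (SE 0.16) with all libraries and -0.39 (adjusted p = 0.232 in edgeR) with those numbered 1 and 2. RBL2, also called p130, had a log2 fold change of -0.01, with 108 CPM in shControl 3 above the 73.5 to 94.8 CPM of the other libraries.

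Among the E2F factors, E2F1, E2F2 and E2F3 activate transcription with their partner TFDP1, and E2F7 and E2F8 are repressors that bind DNA without a DP partner. The largest positive and the largest negative log2 fold change of all members belonged to this last pair. E2F8, on chromosome 11 of hg38 from 19224063 to 19241620, reached 5.43, 4.30 and 3.64 CPM with the control hairpin, compared with 3.39, 2.41 and 2.58 CPM in the shPTBP1 libraries. All 3 shControl libraries lay above all 3 shPTBP1 libraries, and the nearest of them, shControl 3 and shPTBP1 1, were 3.64 and 3.39 CPM. The log2 fold change of E2F8 was -0.67 (SE 0.25, 95% interval -1.26 to -0.08, unadjusted p = 0.0313, adjusted p = 0.826 in edgeR). Its sign was the same in the libraries numbered 1 and 2 (-0.75) and in the pair numbered 3 (-0.49), at a level of 1.09 FPKM or less in each library.

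E2F7, on chromosome 12 from 77021248 to 77065569, stood at 39.1, 45.6 and 33.7 CPM in shControl 1, 2 and 3 and, under shPTBP1, at 56.9, 58.4 and 40.8 CPM. The libraries shPTBP1 1 and 2 stood above the rest, while shPTBP1 3 lay between shControl 1 and 2. Its fold change on the log2 scale was 0.40 (SE 0.18, 95% interval -0.03 to 0.83, unadjusted p = 0.0632, adjusted p = 0.895 in edgeR). It was 0.44 in the libraries numbered 1 and 2 (unadjusted p = 0.0156, adjusted p = 0.185) and 0.28 in the pair numbered 3, the same sign in both. Of the 9 members at an unadjusted p under 0.05 in the libraries numbered 1 and 2, E2F7 and E2F8 were the 2 whose difference in the pair numbered 3 had the same sign.

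For the activating E2F factors the 95% interval lay within 1.5-fold in either direction. E2F1 was measured at 40.3, 35.2 and 44.3 CPM in the control libraries and at 40.5, 41.0 and 41.6 CPM in the libraries labelled shPTBP1, a log2 fold change of 0.04 with an interval of -0.25 to 0.32. E2F2 and E2F3 had log2 fold changes of -0.15 and -0.11. TFDP1, the member of this group with the highest FPKM, reached 229, 149 and 169 CPM with the control hairpin, compared with 123, 208 and 205 CPM in the shPTBP1 libraries, so that both the highest and the lowest library were numbered 1 and belonged to opposite groups. Its log2 fold change was -0.03 (SE 0.24).

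**Figure D3:**
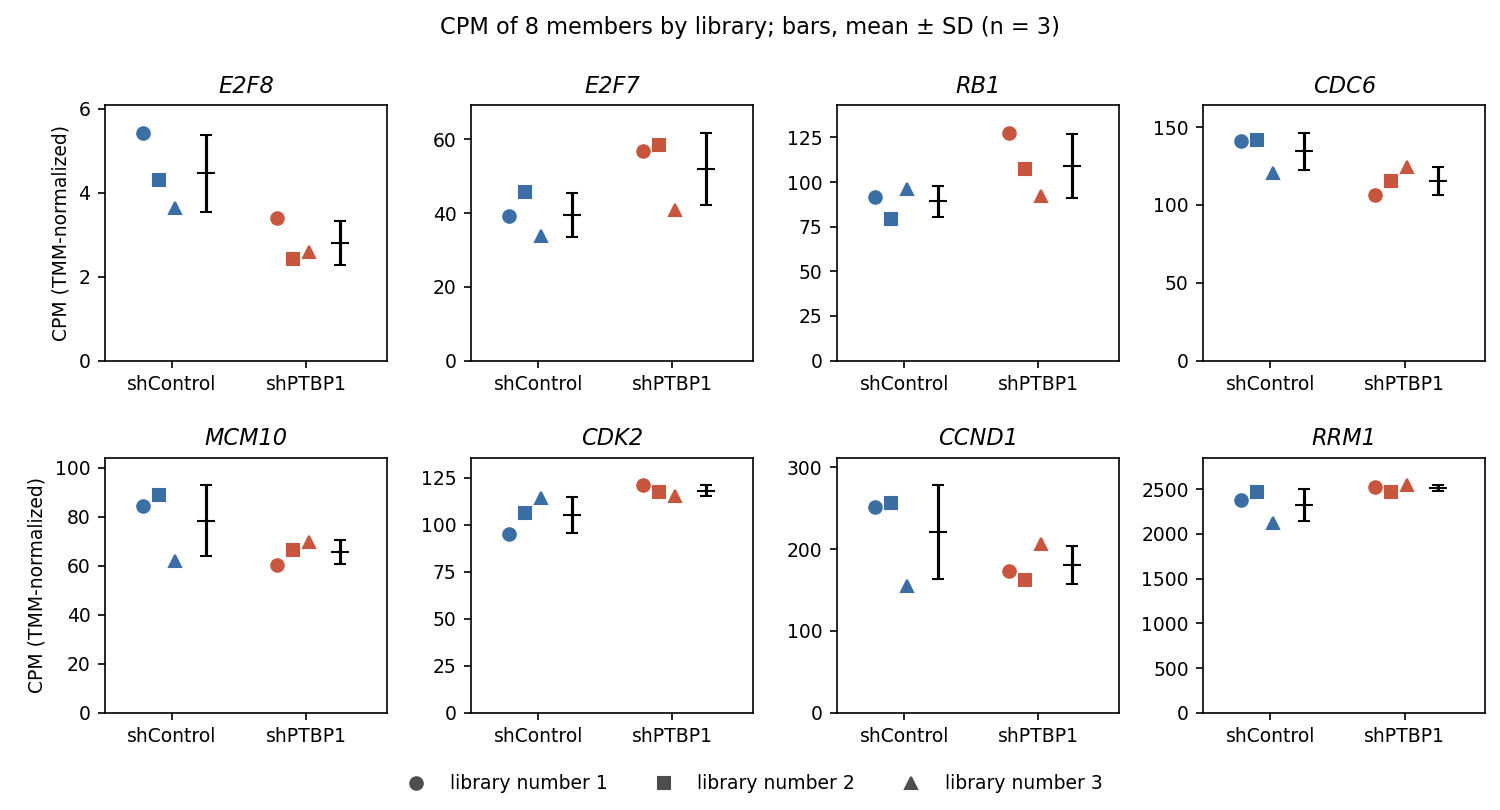
The TMM-normalized CPM of E2F8, E2F7, RB1, CDC6, MCM10, CDK2, CCND1 and RRM1 in each library, with the library number as the marker shape and the mean ± SD of each group (n = 3) in black. The groups are apart for E2F8 and CDK2, and for CDC6, MCM10 and CCND1 shControl 3 lies at or below the level of shPTBP1 3.

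Licensing makes an origin ready to fire before S phase begins. The log2 fold changes of the 11 licensing genes ran from -0.25 for ORC6 to 0.01 for MCM7, with 10 of 11 below 0 and a median of -0.08, and 0 of 11 passed either threshold in the 6 libraries. CDC6, which loads the MCM ring together with the origin recognition complex, stood at 141, 142 and 121 CPM in shControl 1, 2 and 3 and, under shPTBP1, at 106, 115 and 125 CPM. The groups overlapped in CPM through shControl 3, which lay between shPTBP1 2 and shPTBP1 3. In FPKM shControl 3, at 19.59, lay just above shPTBP1 3, at 19.3. The difference of CDC6 on the log2 scale was -0.22 (SE 0.11, unadjusted p = 0.0957, adjusted p = 0.933 in edgeR), -0.35 in the libraries numbered 1 and 2 (unadjusted p = 0.0110, adjusted p = 0.168) and 0.05 in the pair numbered 3.

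ORC6, the smallest subunit of the origin recognition complex, was measured at 93.3, 79.0 and 59.8 CPM in the control libraries and at 66.6, 66.6 and 62.1 CPM in the libraries labelled shPTBP1. Here shControl 3 was the lowest of all 6 libraries. On the log2 scale ORC6 differed by -0.25 (SE 0.17) with all libraries and -0.37 (unadjusted p = 0.0243, adjusted p = 0.218 in edgeR) with those numbered 1 and 2. ORC1, CDT1 and GMNN had log2 fold changes of -0.14, -0.14 and -0.05.

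The subunits of the MCM ring had log2 fold changes between -0.09 and 0.01. MCM3 reached 562, 662 and 574 CPM with the control hairpin, compared with 609.8, 558 and 543 CPM in the shPTBP1 libraries. These groups overlapped, and the log2 fold change of MCM3 was -0.07 (SE 0.11). MCM6 lay between 338 and 355 CPM in all 6 libraries, with a log2 fold change of -0.04 and an interval of -0.23 to 0.16. In FPKM its groups were narrowly apart, at 71.0 to 71.84 in shControl and 68.14 to 68.95 in shPTBP1. MCM2, MCM4, MCM5 and MCM7 had log2 fold changes of -0.09, -0.08, -0.01 and 0.01. MCM2 spread the most of the ring, from 277 to 394 CPM in shControl and from 266 to 366 CPM in shPTBP1.

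Activation of the loaded helicase needs MCM10, CDC45 and the GINS proteins, and these 4 genes split by sign. MCM10 stood at 84.5, 89.0 and 61.8 CPM in shControl 1, 2 and 3 and, under shPTBP1, at 60.3, 66.4 and 69.9 CPM. Again shControl 1 and 2 were high and shControl 3 lay within the shPTBP1 range. MCM10 differed by -0.26 on the log2 scale (SE 0.16, adjusted p = 0.953 in edgeR), -0.46 in the libraries numbered 1 and 2 (unadjusted p = 0.00656, adjusted p = 0.145) and 0.18 in the pair numbered 3.

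GINS2, the highest of the helicase group in FPKM, was measured at 92.9, 84.8 and 76.2 CPM in the control libraries and at 68.3, 71.7 and 82.0 CPM in the libraries labelled shPTBP1. Only shPTBP1 3 reached into the shControl range. GINS2 had a fold change of -0.19 on the log2 scale (SE 0.12) with all libraries and -0.34 (unadjusted p = 0.0170, adjusted p = 0.191 in edgeR) with those numbered 1 and 2.

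CDC45 reached 58.6, 58.1 and 59.6 CPM with the control hairpin, compared with 59.8, 64.4 and 60.4 CPM in the shPTBP1 libraries. Every shPTBP1 library was above every shControl library in CPM, but the nearest were 59.6 and 59.8 CPM and the log2 fold change was 0.07 (SE 0.09, adjusted p = 0.982 in edgeR). In FPKM the groups overlapped, with shControl 3 at 18.06 above shPTBP1 1 and 3 at 17.52 and 17.44. GINS1 had a log2 fold change of 0.06.

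The replication and nucleotide genes held the highest levels of the set and log2 fold changes between -0.14 and 0.11. RRM1 stood at 2379.7, 2474 and 2128 CPM in shControl 1, 2 and 3 and, under shPTBP1, at 2522, 2473 and 2544 CPM. The groups overlapped by 1 CPM between shControl 2 and shPTBP1 2, and the log2 fold change of RRM1 was 0.11 (SE 0.09, 95% interval -0.10 to 0.32, adjusted p = 0.960 in edgeR). PCNA, TK1 (thymidine kinase), TYMS (thymidylate synthase), RRM2 and POLA1, the catalytic subunit of DNA polymerase alpha, had log2 fold changes of -0.14, -0.08, -0.02, 0.00 and 0.04. The span of POLA1 overlaps the pseudogene EEF1B2P3 on the opposite strand, listed at 34.0 FPKM against 17.5 FPKM for POLA1. The counts of POLA1 may therefore carry an uncertainty of strand, but whether the pseudogene meets an exon of POLA1 was not examined. In the other 9 members that overlap a gene at 1 FPKM or more, that gene reached at most 24.7% of the member's FPKM (AKTIP at RBL2).

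The count and the sign of these differences depended on which libraries were compared. In the libraries numbered 1 and 2, both with blood-cell transcripts, 9 of 38 members reached an unadjusted p under 0.05 in edgeR (23.7%, against 17.7% of all genes), and 0 passed an adjusted p of 0.05, against 0.319% of all genes. They were MCM10, RBL1, ORC6, CDC6, CCND1, E2F8 and GINS2, lower in shPTBP1, and RB1 and E2F7, higher in shPTBP1. The 7 lower members were 18.4% of the set, against 7.46% of all genes, and the 2 higher ones 5.26%, against 10.3%. By sign, 29 of 38 members were lower in shPTBP1 (76.3%, against 49.6% of all genes), with a median log2 fold change of -0.12, against 0.00 over all genes. All 11 licensing genes were on the lower side.

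The pair numbered 3, with blood-cell transcripts near 0, had the opposite balance of signs. In this comparison of 1 library with 1, which has no replicate and no test, 11 of 38 members were lower in shPTBP1 3 (28.9%, against 50.5% of all genes), among them 2 of the 11 licensing genes, MCM3 and CDT1. For 26 members the sign differed from that in the libraries numbered 1 and 2, but the share of all genes with a differing sign was not computed. The libraries numbered 3 did not stand apart equally in the groups. Across the 19393 genes tested, log2(CPM + 1) of shControl 3 correlated at 0.976 and 0.979 with shControl 1 and 2 and at 0.984 to 0.985 with the shPTBP1 libraries (Pearson's r, a description across genes, which are not independent). The library shControl 3 was below both other shControl libraries in 25 of 38 members (65.8%, against 38.3% of all genes) and above both in 8 (21.1%, against 40.9%), while shPTBP1 3 was below both other shPTBP1 libraries in 14 (36.8%, against 36.1%). Within each library, the mean over the 38 members of log2(CPM + 1), centred on each member's mean over the 6 libraries, came to 0.11, 0.06 and -0.09 for shControl 1, 2 and 3, with -0.05, 0.02 and -0.04 for the libraries of shPTBP1.

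Without shControl 3, 8 members reached an unadjusted p under 0.05 in edgeR (21.1%, against 16.6% of all genes) and 0 an adjusted p of 0.05, against 0.674% of all genes. They were MCM10, RBL1, ORC6, CDC6, CCND1, GMNN and E2F8, lower in shPTBP1, and CDK2, higher in shPTBP1, and 28 of 38 members were lower (73.7%, against 49.5% of all genes). In each lower member named, shControl 3 was the lowest shControl library in CPM, and in CDK2 it was the highest. Leaving it out therefore widened each of these differences. Since shControl 3 was the lowest control in 25 of 38 members, these counts depend on the library left out and are no separate result. Member counts without each of the other libraries are not given. The part of the blood-cell transcripts in the members' differences was not tested. The number, the blood-cell transcripts and whatever else sets the number 3 libraries apart cannot be told apart.

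**Figure D4:**
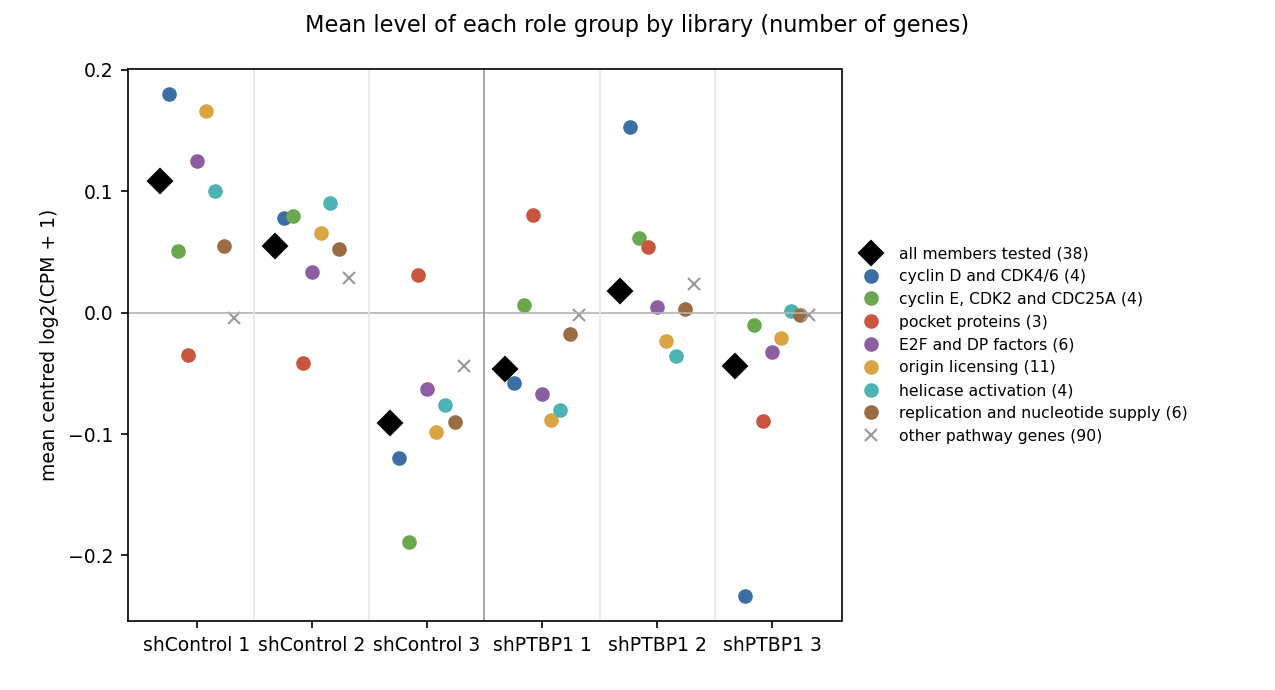
For each library, the mean over the genes of a role group of log2(CPM + 1), centred on each gene's mean over the 6 libraries, with black diamonds for all 38 members and grey crosses for 90 other genes of the pathway. The diamonds lie at 0.11 and 0.06 in shControl 1 and 2 and at -0.09 in shControl 3, while the 3 shPTBP1 libraries lie between -0.05 and 0.02.

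The promoters of the members were searched for short sequence features. The genes were chosen by symbol and not by sequence, but E2F factors switch on genes of DNA replication. A high share of E2F-like runs therefore goes with the kind of gene listed and is no independent result. RefSeq windows from 250 bases before to 50 bases after a start (build GRCh38.p14) were matched for 32 of the 39 members, in 45 windows, and searched on both strands. An E2F-like run, any of TTTCCCGC, TTTGGCGC, TTTCGCGC or TTTGCCGC, was present in 18 of the 45 windows (40%), against 3.31% of all 35116 windows. The letters CCAAT, which the factor NF-Y can bind, were in 28 of the 45 windows (62.2%, against 34.6% of all). TTTGAA, the letters of the cell cycle genes homology region known from genes of later phases, was in 3 windows (6.67%, against 15.2% of all), at E2F3, RBL2 and RRM1. The upstream 250 bases are shown for 4 members, E2F1 as an activating E2F factor, PCNA and MCM6 as replication genes with small fold changes, and E2F7 as the member with the largest positive fold change. Capitals mark E2F-like and CCAAT matches, and a match on the opposite strand reads as its reverse complement, such as ATTGG for CCAAT.
E2F1, chr20:33686386-33686635, minus strand: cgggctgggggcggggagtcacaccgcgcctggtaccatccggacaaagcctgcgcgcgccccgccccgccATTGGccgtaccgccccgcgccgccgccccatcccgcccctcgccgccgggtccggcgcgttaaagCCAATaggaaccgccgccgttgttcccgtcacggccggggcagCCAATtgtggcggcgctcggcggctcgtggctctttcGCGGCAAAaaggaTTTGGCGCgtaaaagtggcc
PCNA, chr20:5126623-5126872, minus strand: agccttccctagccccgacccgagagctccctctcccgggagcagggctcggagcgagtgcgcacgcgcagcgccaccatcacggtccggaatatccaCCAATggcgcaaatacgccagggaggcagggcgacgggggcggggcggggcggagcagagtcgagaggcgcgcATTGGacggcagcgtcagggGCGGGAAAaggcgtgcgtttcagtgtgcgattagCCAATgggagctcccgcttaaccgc
MCM6, chr2:135876444-135876693, minus strand: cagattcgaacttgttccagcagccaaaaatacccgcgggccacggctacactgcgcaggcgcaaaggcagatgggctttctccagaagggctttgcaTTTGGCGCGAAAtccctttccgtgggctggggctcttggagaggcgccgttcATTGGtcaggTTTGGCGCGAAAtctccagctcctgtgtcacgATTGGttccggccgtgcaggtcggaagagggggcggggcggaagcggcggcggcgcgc
E2F7, chr12:77065570-77065819, minus strand: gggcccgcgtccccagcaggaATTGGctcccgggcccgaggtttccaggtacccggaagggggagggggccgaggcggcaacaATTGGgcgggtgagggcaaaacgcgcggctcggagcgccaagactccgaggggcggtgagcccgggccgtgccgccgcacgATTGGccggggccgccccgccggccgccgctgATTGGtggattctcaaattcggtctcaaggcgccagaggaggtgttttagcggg

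In the window of E2F1 the 2 E2F-like matches began 33 and 20 bases before the start, and in the window of PCNA shown the single one began 59 bases before it. MCM6 held the same 12-base run in 2 places, beginning 152 and 90 bases before the start, and each place matches on both strands because the run contains TTTGGCGC and, reversed, TTTCGCGC. E2F7 held 4 CCAAT matches and no E2F-like run in this window. The windows shown were chosen by role and by fold change, so no relation between matches and fold changes can be read from them. A match describes letters only, and its absence says nothing of a factor.

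Of 90 other genes of the pathway, all tested, 0 passed an adjusted p of 0.05 in edgeR and 3 an unadjusted p under 0.05 (3.33%, against 5.69% of all genes), all of them higher in shPTBP1. The 90 genes had 46 positive and 44 negative log2 fold changes with a median of 0.02. In CPM the groups did not overlap for 4 of the 90, higher in every shPTBP1 library (6.49% of all genes). They also did not overlap for 3, LIN9, FBXW7 and MCMBP, lower in every shPTBP1 library (5.46% of all genes). CDKN1A, which encodes p21, the inhibitor of cyclin-CDK complexes that p53 induces, lies on chromosome 6 from 36676460 to 36687339 and was measured at 113, 111 and 144 CPM in the control libraries and at 236, 231 and 235 CPM in the libraries labelled shPTBP1. All 3 shPTBP1 libraries were well above all 3 shControl libraries, including those numbered 3. The log2 fold change of CDKN1A was 0.93 (SE 0.13, 95% interval 0.63 to 1.23, adjusted p = 0.140 in edgeR). It passed the adjusted threshold in the libraries numbered 1 and 2 (log2 fold change 1.06, adjusted p = 0.0426 in edgeR), without shControl 3 (1.07, adjusted p = 0.0178) and in DESeq2 with all libraries (0.93, adjusted p = 2.68e-05). Both of these edgeR fits leave out shControl 3, the control library with the most CDKN1A. With the library number as a block CDKN1A did not pass (0.94, adjusted p = 0.594 in edgeR).

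CDKN1C, which encodes the related inhibitor p57, reached 1.29, 1.02 and 2.12 CPM with the control hairpin, compared with 3.78, 3.73 and 2.06 CPM in the shPTBP1 libraries, a difference seen in the libraries numbered 1 and 2 and not in those numbered 3. Its log2 fold change was 1.11 (SE 0.38, adjusted p = 0.778 in edgeR). TIMELESS, a component of the complex that protects the replication fork, stood at 139, 151 and 142 CPM in shControl 1, 2 and 3 and, under shPTBP1, at 169, 185 and 180.3 CPM, with no overlap and a log2 fold change of 0.31 (SE 0.09, adjusted p = 0.688 in edgeR). The CDK inhibitors as a list had 6 of 7 positive log2 fold changes with a median of 0.19, against 48.0% positive over all genes. The licensing and helicase factors outside the set had 9 of 18 (median 0.01), the polymerase and fork factors 19 of 32 (0.02), the other E2F and pocket-protein factors 4 of 9 (-0.06), the other cyclin, CDK and turnover factors 4 of 13 (-0.06) and the nucleotide-supply genes 4 of 11 (-0.02).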

How the data were processed

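The authors deposited 1 table for the series with FPKM and whole-number counts for each gene and library. Their processing notes name cutadapt 1.9, FastQC, HISAT2 2.2.1, StringTie and build hg38, without settings, and counting by strand is not given in the sources used here. The deposited counts were treated as estimated counts and rounded, since 32.5% to 34.4% of those from 1 to 40 were multiples of 4 in each library, and the depth in fragments is therefore not known. Of the annotation columns of the table, the gene identifier, symbol and position were used.

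The main test was that of edgeR 4.0.16 in R 4.3.3 (glmQLFTest, its quasi-likelihood test), with TMM factors, filterByExpr and no covariate, over 19393 genes, with Benjamini-Hochberg adjustment over all of them and a threshold of 0.05. The standard error was the absolute log2 fold change over the square root of F, and 95% intervals used its degrees of freedom. All tests were two-sided. Levels between genes were compared as FPKM and between libraries as TMM-normalized CPM. FPKM near 0 cannot be told from a failed estimate. Gene positions are those of the deposited table, transcript lengths those of GENCODE 29 and promoters those of RefSeq. The steps were tested on simulated data.

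Members, role groups, the 90 other pathway genes, marker lists and alternatives were chosen with earlier results of these data known. The values of every library are given for members at an unadjusted p under 0.05 in all libraries or in those numbered 1 and 2, for the 6 smallest p-values, for groups that did not overlap, for the highest FPKM of each role group and for CCND1. Of other pathway genes, those at an unadjusted p under 0.05 are named. Alternatives were DESeq2 1.42.0, RLE and upper-quartile scaling, no filter, limma 3.58.1 on log2 FPKM with a pseudocount of 1 or 0.1 and a minimum mean of 1 FPKM or none, a replicate block, number 3 as a covariate, the libraries numbered 1 and 2, leaving out each library, counts divided by 4 and other thresholds. Tables were made with pandas 2.3.3 and scipy 1.17.1 and figures with matplotlib 3.10.9, under Python 3.11.15. Splicing was left out because the table holds 1 value per gene.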

Additional observations from a re-analysis of the deposited data

How the results depend on the processing

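At an adjusted p under 0.05, members called stayed at 0 under every alternative fit. In the fit of all 6 libraries there were also 0 at an adjusted p under 0.1, and 1 at an unadjusted p under 0.05, where all genes came to 1104. All genes called, 6 in edgeR, came to 166 in DESeq2, 1 in limma on log2(FPKM + 1) without a filter, 3 with number 3 as a covariate, 63 in the libraries numbered 1 and 2 and 2 to 136 when leaving out 1 library, the highest without shControl 3. The replicate block called 0 genes and 0 members, 987 genes being at an unadjusted p under 0.05. Same-numbered deviations correlated at -0.07, 0.12 and 0.02 over all genes tested, and not every library correlated best with its own number, so the numbers were not taken to pair the libraries, although blood-cell transcripts follow number 3 in both groups. The members' median log2 fold change stayed between -0.12 and -0.01. Of 644 member values under 17 alternatives 51 had the other sign, in 17 members with an absolute log2 fold change of at most 0.14. The libraries numbered 1 and 2 gave CDK4 -0.14, CCNE2 -0.11, RBL2 0.25, MCM7 -0.038, RRM2 -0.12 and POLA1 -0.012. DESeq2 gave CDK4 -5.5e-05, counts divided by 4 CDK4 -2.7e-04, and RLE scaling CDK4 -0.0038 and RRM2 -2.7e-04. Limma with a pseudocount of 1, with and without the filter, gave CCND3 -0.022, MCM7 -0.016 and RRM2 -0.016, and with 0.1 CCND3 -0.029, MCM7 -0.016 and RRM2 -0.017. Leaving out each library gave ranges of -0.36 to 0.33 (CCND3), -0.13 to 0.24 (CDK4), -0.30 to 0.019 (CDK6), -0.11 to 0.018 (CCNE1), -0.13 to 0.15 (CCNE2), -0.13 to 0.16 (RBL2), -0.044 to 0.12 (E2F1), -0.15 to 0.18 (TFDP1), -0.19 to 0.020 (CDC25A), -0.22 to 0.072 (GMNN), -0.23 to 0.054 (MCM2), -0.13 to 0.0048 (MCM3), -0.064 to 0.088 (MCM5), -0.029 to 0.041 (MCM7), -0.094 to 0.072 (RRM2), -0.12 to 0.076 (TYMS) and -0.039 to 0.15 (POLA1). Summing over identifiers gave no value of its own, since each member has 1 row. The cause of these differences was not tested.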
